A study of Mus musculus with 8 samples.

Results

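The comparison of REDD1 knockout with wild-type epidermis under vehicle used 4 of the 8 libraries of the series, chosen by their labels alone: vehicle replicates 1 and 2 of each genotype. REDD1 is the protein encoded by Ddit4. All mice were female and of an F1 C57Bl x 129 background, which the submitters describe as the same for both genotypes. Their backs were shaved and received 200 ul of acetone, the solvent in which the study's agents were dissolved. Epidermis was scraped from the skin, and total RNA was sequenced. The labels give neither the mice's ages nor how the knockout allele was made, and they do not say whether the genotypes were littermates or whether a library was 1 animal or a pool. P-values therefore measure only how far these samples spread, and that spread may be technical. The other 4 libraries, 1 of each genotype for 4 ug of the phorbol ester TPA and 1 for 2 ug of the glucocorticoid fluocinolone acetonide (FA) given 1 h before TPA, were taken 24 h after TPA. They have no replicates within a genotype and were used only to look up the direction of differences found under vehicle.

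REDD1 is a small stress-induced protein that restrains mTORC1, the kinase complex through which nutrients and growth factors drive protein and lipid synthesis. It acts through the TSC1 and TSC2 complex, upstream of the GTPase Rheb, and its gene is switched on by hypoxia, energy stress and glucocorticoids. Back-skin epidermis consists mainly of keratinocytes. It also holds Langerhans cells, resident gamma-delta T cells and parts of the hair follicle with its sebaceous gland, whose cells fill with lipid and release it as sebum.

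The 4 vehicle libraries held between 16874233 and 20381587 counts in genes. A level is given as normalised CPM (counts scaled by library size and by a factor fitted over the 4 libraries), and a floor of 3 counts corresponded to between 0.147 and 0.178 CPM. Replicates of a genotype were more alike than libraries of different genotypes. Pearson's r of log2 CPM across genes, which are not independent replicates, was 0.986 within wild type and 0.989 within knockout, and it lay between 0.974 and 0.979 across genotypes. The first principal component took 57.5% of the variance and separated the genotypes. Replicates still differed by more than counting noise, and 704 genes in wild type and 525 in knockout were more than 2-fold apart between replicates. Keratinocyte genes were present in all 4 libraries: the 37 tested epidermal differentiation genes summed to between 49760 and 61060 CPM and the 14 basal genes to between 18300 and 21120 CPM. Xist lay between 2660 and 3162 CPM in all 4 libraries, which fits the female label. The deposited files of all 4 wild-type libraries end their lines with a carriage return and those of the 4 knockout libraries do not, so a difference in how the files were prepared and genotype cannot be told apart.

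Ddit4 (ENSMUSG00000020108), a protein-coding gene on the minus strand of chromosome 10 (mm10, 59949669 to 59951834), was at 138.3 and 125.3 CPM in the wild-type libraries and at 20.4 and 20.3 CPM in the knockout libraries. The genotypes did not overlap. The log2 fold change of knockout against wild type was -2.70 ± 0.13 (standard error, SE; edgeR adjusted p = 5.42e-06), so the targeted gene was lower in each library labelled knockout, with reads still counted in its locus. In the treated pairs it was also lower in knockout, at 4.11 against 60.1 CPM with TPA and 6.68 against 83.2 CPM with FA+TPA. Around the locus there was little other difference. Within 10 Mb of Ddit4, 115 other genes were tested and 1 was called, Gja1 (0.72 ± 0.13, edgeR adjusted p = 0.0163), which encodes the gap junction protein connexin 43. Its call ended without knockout replicate 1 (edgeR adjusted p = 0.0568). On chromosome 10 as a whole 1.94% of tested genes were called, beside 2.46% of all tested genes.

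Other parts of the pathway that REDD1 belongs to differed little at the RNA level. Of 25 tested genes for REDD1, sestrins and mTORC1 regulators, Ddit4 was the only one called, and the list median was 0.03 beside -0.004 for all tested genes. Sestrins are stress proteins that also restrain mTORC1. Sesn2 was at 64.8 and 50.9 CPM in wild type and at 52.9 and 56.4 CPM in knockout, and Sesn1 at 65.6 and 65.2 against 77.5 and 57.5 CPM. Both overlapped between genotypes. Sesn3 was at 32.1 and 40.8 CPM in wild type and at 47.2 and 47.7 CPM in knockout (0.38 ± 0.14, edgeR adjusted p = 0.293), and it was called without wild-type replicate 2 (0.56, edgeR adjusted p = 0.00187). The REDD1 paralogue Ddit4l was close to the floor in all 4 libraries, at most 1.02 CPM. Tsc1 differed by 0.15 ± 0.12 (edgeR adjusted p = 0.781) and Tsc2 by -0.17 ± 0.12 (edgeR adjusted p = 0.722). Txnip, a REDD1 binding partner that restrains glucose uptake, was at 516.9 and 700.5 CPM in wild type and at 865.5 and 331.5 CPM in knockout. The knockout replicates of Txnip lay on either side of both wild-type libraries, and without knockout replicate 1 it was called lower (-0.87, edgeR adjusted p = 0.0185).

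No member was called among 12 translation outputs of mTORC1 (median -0.02), 15 glycolytic enzymes (-0.04), 23 subunits of oxidative phosphorylation (0.14), 20 autophagy and lysosome genes (0.06), 11 FoxO targets (-0.08) or 15 NRF2 targets (0.10). With a crossed replicate block, Hk2 (0.46), Ctsd (0.47) and Gclm (0.59) of these lists were called (edgeR adjusted p = 0.0389, 0.0398 and 0.0479). Ctsd was also called with no low-count filter (0.45, edgeR adjusted p = 0.0441). The NRF2 median was 0.36 without wild-type replicate 2. Without that library the differences were 0.49 for Hk2, 0.56 for Uqcrq, 0.65 for Ctsd, 0.87 for Klf15 and 0.74 for Gclm. They were larger than in the main fit (0.46, 0.41, 0.46, 0.68 and 0.59), so the lack of calls in these lists leaned on that library. In 3 further lists 1 member passed the test (2.46% of all tested genes did). Psph, the last enzyme of serine synthesis and a target of the stress factor ATF4, was higher by 0.85 ± 0.15 (edgeR adjusted p = 0.0175) among 18 ATF4 targets; 3 were called without either wild-type library and 2 without knockout replicate 1. Bhlhe40, a repressor induced by hypoxia, was lower by 0.70 on the log2 scale (SE 0.12, edgeR adjusted p = 0.0163) among 15 hypoxia genes, which did not hold without either knockout library (up to 0.094), while 2 were called without wild-type replicate 2. Dbp, an output gene of the circadian clock, was at 96.2 and 74.8 CPM in wild type and at 54.4 and 49.9 CPM in knockout (-0.71 ± 0.14, edgeR adjusted p = 0.0284) among 16 clock genes. That call ended without knockout replicate 2 (edgeR adjusted p = 0.117), and 2 and 3 clock genes were called without wild-type replicates 1 and 2. Nop58, a core protein of the small nucleolar particles that modify ribosomal RNA, was at 48.7 and 56.3 CPM in wild type and at 141.0 and 138.7 CPM in knockout. It was the only one of 16 ribosome biogenesis genes called (1.41 ± 0.12, edgeR adjusted p = 0.000511), where 1.68% of all tested genes were called higher. Nop58 was also higher in knockout in the TPA pair (145.0 against 73.6 CPM) and in the FA+TPA pair (129.6 against 74.8 CPM).

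In all, 454 of 18489 tested genes (2.46%) passed the edgeR quasi-likelihood test at a Benjamini-Hochberg adjusted p of 0.05. Of these, 311 (1.68%) were higher and 143 (0.773%) lower in knockout, 220 and 108 of them by more than 2-fold. At an unadjusted p of 0.05 the number was 2153. The count rested on both wild-type libraries, and it was 1063 without wild-type replicate 1 and 1777 without wild-type replicate 2, where the lone library is assumed to vary like the knockout pair. It was 226 with a minimum count of 50 and 956 with no low-count filter. Both knockout libraries lay above both wild-type libraries for 3837 genes (20.8%) and below them for 3491 (18.9%), so non-overlap alone was common. Of the 54 genes past the threshold that the naming rule took, 13 overlap another tested gene, none of which was called. The strand setting of the counting is not given in the sources used here. Reads shared by genes on opposite strands, as for Psph with Cct6a, Dbp with Sphk2 and Dusp1 with Ergic1, therefore cannot be told apart. Nop58 and the small nucleolar RNAs inside it lie on the same strand, where a strand setting would not separate their shared reads.

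**Figure D1:**
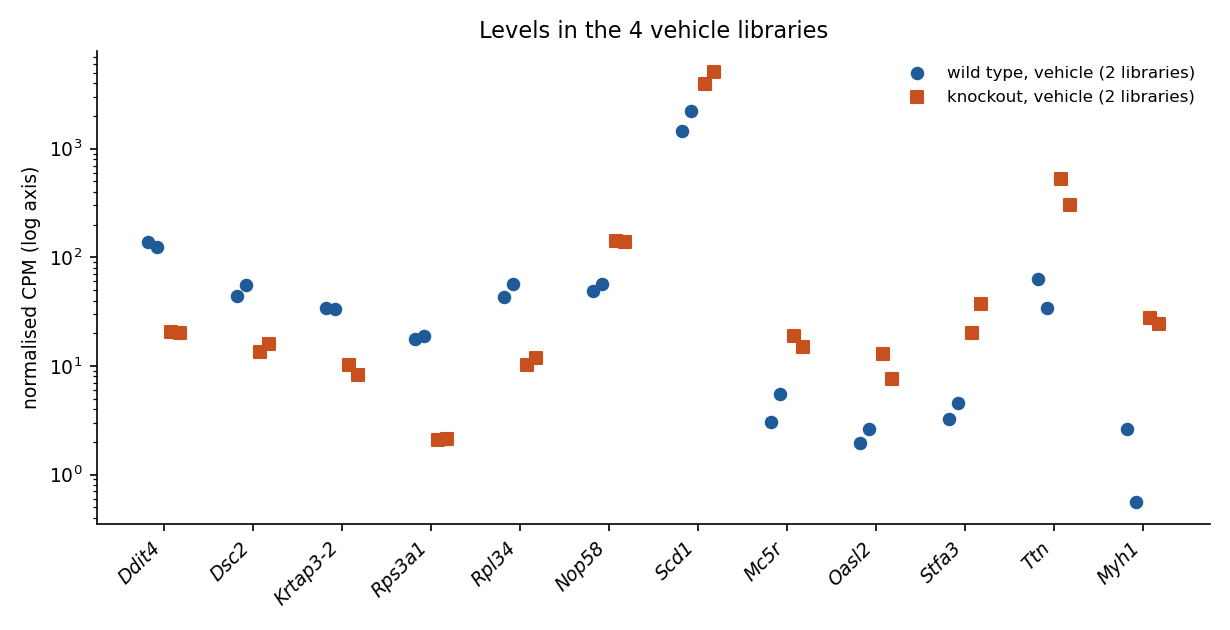
Normalised CPM on a log axis for 12 named genes in the 4 vehicle libraries, with circles for wild type and squares for knockout. The genotypes do not overlap for these genes, from Ddit4 (138.3 and 125.3 against 20.4 and 20.3 CPM) to the muscle gene Myh1 (2.63 and 0.555 against 27.4 and 24.6 CPM), whose wild-type replicates lie far apart.

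Genes of the sebaceous gland were higher in knockout. All 14 listed markers lay higher in both knockout libraries than in both wild-type libraries (20.8% of all tested genes did so). Of these, 12 were called higher (1.68% of all tested genes were), and the list median was 1.41. The summed level of the list was 2566 and 3911 CPM in wild type and 6525 and 8411 CPM in knockout. In bulk RNA more sebaceous cells and more RNA per cell cannot be told apart. Mc5r, the melanocortin receptor of sebocytes, was at 3.05 and 5.55 CPM in wild type and at 18.9 and 14.8 CPM in knockout (1.96 ± 0.26, edgeR adjusted p = 0.00473). Dgat2l6, a member of the acyltransferase family that makes neutral lipid, was at 2.75 and 2.44 CPM in wild type and at 8.89 and 17.8 CPM in knockout (2.37 ± 0.33, edgeR adjusted p = 0.00546). The wax ester synthases Awat1 (1.70 ± 0.26) and Awat2 (1.12 ± 0.23), the fatty alcohol enzyme Far2 (1.43 ± 0.24) and the fatty acid elongase Elovl3 (1.39 ± 0.27) were also called higher. So were the lipid droplet genes Plin2 (1.25 ± 0.17) and Cidea (1.46 ± 0.22). Elovl4 (0.78 ± 0.19, edgeR adjusted p = 0.0625) and Fabp5 (0.61 ± 0.18, edgeR adjusted p = 0.149) missed the threshold. Between 9 and 14 members were called under the 19 alternatives. In the treated libraries, which were normalised separately, the summed levels were 4320 (wild type) and 4223 (knockout) CPM with TPA, and 2662 and 4987 CPM with FA+TPA. Single members were higher in knockout for 11 of 14 with TPA and 13 of 14 with FA+TPA, where 48.2% and 49.5% of all tested genes were.

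Fatty acid and sterol synthesis genes moved in part. Of 21, 5 were called higher (1.68% of all tested genes were) and none lower (0.773%), and the median was 0.27. Scd1, the stearoyl-CoA desaturase on which sebum lipid depends and also a member of the sebaceous list, was at 1445 and 2207 CPM in wild type and at 3965 and 5058 CPM in knockout (1.30 ± 0.22, edgeR adjusted p = 0.0119). Fasn (0.78 ± 0.16), Elovl6 (0.96 ± 0.20) and the sterol sensor partner Insig1 (0.89 ± 0.20) were also called. These genes rose in the same libraries as the sebaceous list, and the part of sebaceous cells in their difference was not tested. Without wild-type replicate 2 the count was 12 and the median 0.54, and without wild-type replicate 1 the median was 0.08. Of 10 adipocyte markers, Cidea, Car3 (2.17 ± 0.34) and Pparg (1.43 ± 0.25) were called higher (1.68% of all tested genes were). Adipoq and Lep, which define fat cells, were too low to be tested. Cidea is also on the sebaceous list. Of the 10 adipocyte markers, 4 lay higher in both knockout libraries (20.8% of all tested genes did so). Only 1, Lipe, lay lower in both (18.9%), and 5 overlapped between genotypes. The adipocyte median was 0.72. The median was 0.15 without knockout replicate 2, 1.12 without knockout replicate 1 and 1.32 without wild-type replicate 2, and in the last 2 cases 5 members were called.

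Interferon-induced genes lay higher in knockout, most of them at low levels. Of 21 tested members 5 were called higher (1.68% of all tested genes were), 15 lay higher in both knockout libraries than in both wild-type libraries (20.8% of all tested genes) and none lay lower, and the median was 0.94. Oasl2, a sensor-related antiviral protein, was at 1.95 and 2.61 CPM in wild type and at 12.8 and 7.61 CPM in knockout (2.15 ± 0.30, edgeR adjusted p = 0.00561). Ifit1, which binds foreign RNA, was at 0.611 and 1.05 CPM against 5.54 and 3.11 CPM (2.35 ± 0.40, edgeR adjusted p = 0.0137). Rsad2 (2.28 ± 0.42), Rtp4 (2.48 ± 0.44) and Usp18 (0.90 ± 0.19) were the other 3. Stat2 (0.43 ± 0.14) and Irf7 (0.60 ± 0.18), which carry the interferon signal, missed the threshold, with edgeR adjusted p of 0.181 and 0.158. Cxcl9 (2.60 ± 0.42, edgeR adjusted p = 0.0109) and Cxcl10 (2.08 ± 0.44, edgeR adjusted p = 0.037) were the 2 called higher among 14 cytokines and chemokines (1.68% of all tested genes were). Both attract T cells and are classical interferon-gamma targets. None of 13 MHC and antigen presentation genes was called (median -0.07). Of these, 3 lay lower in both knockout libraries (18.9% of all tested genes did so) and none higher. H2-Q6, among these 3, differed by -0.55 ± 0.16 (edgeR adjusted p = 0.135). It was called lower with no low-count filter (edgeR adjusted p = 0.00638), a replicate block (0.034) and a crossed replicate block (0.0296). Without wild-type replicate 2 its difference was -0.74. Irf1, on the interferon list, differed by 0.09 ± 0.14. The count of 5 depended on the libraries: it was 11 without wild-type replicate 1, 13 without wild-type replicate 2 and 10 without knockout replicate 2. In the treated pairs 20 of 21 members were higher in knockout with TPA (48.2% of all tested genes were) and 18 of 21 with FA+TPA (49.5%).

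Promoter sequences of the interferon list are shown because its members lay higher together, and interferon-induced genes are known for a shared response element. The element was searched as GAAANNGAAA on both strands, which reads TTTCNNTTTC on the other strand, in RefSeq windows of 300 bases (GRCm38.p6) from 250 bases before to 50 after each gene's start. It was found in 8 of the 12 tested list members with a window and in 3.54% of the 11749 tested genes with one. The 5 called members had 3 windows between them, of which 2 held it, and the window of Oasl2 did not. Stretches of 100 bases follow, 5′ to 3′ on the strand of the gene, with the matches in capitals, for Ifit1 at chr19:34640755-34640854 (plus strand) and Rsad2 at chr12:26456503-26456602 (minus strand).
Ifit1: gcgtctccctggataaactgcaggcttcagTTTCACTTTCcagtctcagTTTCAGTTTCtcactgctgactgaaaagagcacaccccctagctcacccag
Rsad2: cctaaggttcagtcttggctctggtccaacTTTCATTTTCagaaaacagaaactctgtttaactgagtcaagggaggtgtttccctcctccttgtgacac
A match is a description of these letters, not of a bound factor.

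Keratinocyte genes differed in a few members. Among 12 stress keratin, SPRR and related genes the median was 1.12, and 9 lay higher in both knockout libraries (20.8% of all tested genes did so). Only Stfa3 and Stfa1, which encode stefin A protease inhibitors, were called higher (1.68% of all tested genes were). Stfa3 was at 3.24 and 4.60 CPM in wild type and at 19.96 and 37.4 CPM in knockout (2.86 ± 0.30, edgeR adjusted p = 0.00123). BC100530, a near-identical stefin gene (96.9% identity to Stfa1), was at 0.794 and 1.39 CPM against 6.40 and 11.9 CPM (3.05 ± 0.38, edgeR adjusted p = 0.00319). Reads of such copies can be divided between them, so the single genes are uncertain. The alarmins S100a8 (2.48 ± 0.58, edgeR adjusted p = 0.0547) and S100a9 (1.86 ± 0.44, edgeR adjusted p = 0.06) and the activation keratins Krt6a (0.74 ± 0.25) and Krt16 (0.67 ± 0.20) were not called. S100a8 was called higher with DESeq2 (adjusted p = 0.0149) and, in edgeR, with scaling by library size (adjusted p = 0.036). In edgeR it was also called with no low-count filter (adjusted p = 2.78e-05), a replicate block (1.7e-05) and a crossed replicate block (0.00271). This list leaned on knockout replicate 2: without it 1 member was called and the median was 0.69, and without knockout replicate 1 8 were called with a median of 1.67. Without wild-type replicate 2 the number called was 9, and without wild-type replicate 1 it was 6. In the treated pairs 1 of the 12 was higher in knockout with TPA, where the summed level was 16220 (wild type) and 12330 (knockout) CPM, and 9 of 12 were with FA+TPA, at 3686 and 4124 CPM.

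Of 37 epidermal differentiation genes, 2 were called higher (1.68% of all tested genes were), and the median was -0.11. In both knockout libraries 6 lay higher (20.8% of all tested genes) and 12 lay lower (18.9%). Without wild-type replicate 2 the number called was 5. Rptn, a cornified envelope precursor, was at 1.65 and 1.89 CPM in wild type and at 5.64 and 17.7 CPM in knockout (2.72 ± 0.48, edgeR adjusted p = 0.0163). Flg, the source of filaggrin, was at 477.8 and 351.0 CPM in wild type and at 658.4 and 817.6 CPM in knockout (0.83 ± 0.17, edgeR adjusted p = 0.034). Without knockout replicate 2 it missed the threshold (edgeR adjusted p = 0.108). None of 14 basal and hemidesmosome genes was called (median -0.18). Itga3 of this list differed by -0.38 without wild-type replicate 2, beside -0.29 in the main fit. Dsc2, a desmosomal cadherin, was lower at 13.3 and 15.9 CPM in knockout against 43.8 and 55.7 CPM in wild type (-1.77 ± 0.16, edgeR adjusted p = 0.00059). Krtap3-2, a keratin-associated protein of the hair shaft, was at 33.9 and 33.8 CPM in wild type and at 10.2 and 8.21 CPM in knockout (-1.88 ± 0.16, edgeR adjusted p = 0.000397). Both were also lower in knockout in each treated pair. No member of the hair shaft and matrix list was called among the 5 that could be tested.

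A few cell cycle genes were higher. Of 30, 3 were called higher (1.68% of all tested genes were), Top2a (0.58 ± 0.12), Mki67 (0.56 ± 0.13) and Kif11 (0.64 ± 0.14). The list median was 0.21. Mki67, a proliferation marker, was at 96.9 and 113.8 CPM in wild type and at 159.4 and 151.7 CPM in knockout (edgeR adjusted p = 0.0459). None of the 3 held without either knockout library, where no member of the list was called, and 5 and 9 were called without wild-type replicates 1 and 2. Scaling by another method (RLE) left 1. Sox9, a transcription factor of the hair follicle, was the only one of 13 follicle stem cell genes called (0.86 ± 0.18, edgeR adjusted p = 0.034). Of all tested genes 1.68% were called higher. The Sox9 call ended without knockout replicate 2, where the difference was 0.60. Of the 13, 7 lay higher in both knockout libraries (20.8% of all tested genes did so) and 1 lay lower (18.9%). Without wild-type replicate 2 the number called was 6; the follicle median was 0.47, with 0.21 without wild-type replicate 1 and 0.75 without wild-type replicate 2. Dusp1, a phosphatase that ends MAP kinase signalling and a glucocorticoid target, was at 54.5 and 98.0 CPM in wild type and at 148.8 and 155.0 CPM in knockout (0.99 ± 0.22, edgeR adjusted p = 0.0423). That call missed the threshold with DESeq2 (adjusted p = 0.333) and, in edgeR, with a robust prior (adjusted p = 0.116), a minimum count of 50 (0.0841), protein-coding genes alone (0.0705) and copies summed (0.0506). Dusp1 was the only call among 20 glucocorticoid targets and among 18 immediate early genes (1.68% of all tested genes were called higher). Leaving out wild-type replicate 1, wild-type replicate 2 or knockout replicate 1 gave 3, 4 and 2 calls among the glucocorticoid targets. Among the immediate early genes the calls were 3 and 6 without wild-type replicates 1 and 2, and 4 without either knockout library.

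Markers of resident epidermal T cells lay lower in knockout, mostly short of the threshold. Of 11 tested members 9 lay lower in both knockout libraries than in both wild-type libraries (18.9% of all tested genes did so), and the median was -0.62. Only Cd3e, a subunit of the T cell receptor complex, was called lower (0.773% of all tested genes were). Cd3e was at 20.6 and 19.7 CPM in wild type and at 12.9 and 11.4 CPM in knockout (-0.73 ± 0.15, edgeR adjusted p = 0.0362), and it missed the threshold without either knockout library (up to 0.248). Trdc, the constant region of the delta chain, was at 17.5 and 16.3 CPM against 11.3 and 8.01 CPM (-0.81 ± 0.19, edgeR adjusted p = 0.0603). Without wild-type replicate 1 or 2 the number called was 3. The summed T cell level was 67.7 (wild type) and 56.4 (knockout) CPM with TPA, and 55.3 and 56.8 CPM with FA+TPA. Single T cell markers were higher in knockout for 2 of 11 with TPA and 4 of 11 with FA+TPA (48.2% and 49.5% of all tested genes were). None of 9 Langerhans cell and MHC class II genes was called (median -0.05). None was called either among the markers of fibroblasts (11 tested, median 0.04), endothelium (8, 0.01), smooth muscle and pericytes (8, 0.25), macrophages and neutrophils (9, 0.14), mast cells (3, 0.56), melanocytes (4, 0.58), erythroid cells (2, -0.20) or Schwann cells (7, -0.12). Some of these medians changed sign with 1 library left out, from -0.40 to 0.41 for fibroblasts, -0.19 to 0.76 for mast cells and -0.90 to 0.24 for erythroid cells. Postn, on the fibroblast list, was called with a crossed replicate block (0.48, edgeR adjusted p = 0.0183). Without wild-type replicate 2 its difference was 0.75 (0.47 in the main fit). That of Mfge8, on the Langerhans cell list, was -0.54 (-0.39 in the main fit). S100a8, on the macrophage and neutrophil list, was called under some alternatives, as given above.

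Skeletal muscle transcripts were higher in knockout and varied between replicates. Muscle lies under the skin and is not a part of epidermis. All 23 tested members lay higher in both knockout libraries than in both wild-type libraries (20.8% of all tested genes did so), 17 were called higher (1.68% of all tested genes), and the median was 2.91. Their summed level was 140.9 and 72.5 CPM in wild type and 964.6 and 498.3 CPM in knockout. The lower knockout library still lay above the higher wild-type library. Ttn, which encodes the giant sarcomere spring titin, was the largest member of the sum in each vehicle library. It was at 63.7 and 33.8 CPM in wild type and at 527.9 and 302.8 CPM in knockout (3.09 ± 0.31, edgeR adjusted p = 0.000849). Myh1, a fast myosin heavy chain, was at 2.63 and 0.555 CPM in wild type and at 27.4 and 24.6 CPM in knockout (4.06 ± 0.40, edgeR adjusted p = 0.000736). Of the 10 largest rises that the naming rule took, 9 were muscle genes: Mybpc2, Myh1, Tnnt3, Xirp2, Ckm, Tnni2, Acta1, Ttn and Myh4. H19, a noncoding RNA of embryonic tissue and muscle, followed the same libraries at 0.611 and 0.388 CPM in wild type and at 11.02 and 3.56 CPM in knockout (3.86 ± 0.58, edgeR adjusted p = 0.00776).

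The treated pairs showed no common direction for muscle. With TPA the summed level was 155.0 (wild type) and 220.4 (knockout) CPM, and with FA+TPA 708.1 and 534.5 CPM. Members were higher in knockout for 20 of 23 with TPA and 10 of 23 with FA+TPA, beside 48.2% and 49.5% of all tested genes. The calls were sensitive to how the spread is estimated: a robust prior, which lets variable genes keep their own spread, left 7 of the 17, and without knockout replicate 1 the median was 1.93. With the muscle list removed before normalisation 450 genes were called, of which 437 were also called with it, and the 12 sebaceous calls were still made.

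**Figure D2:**
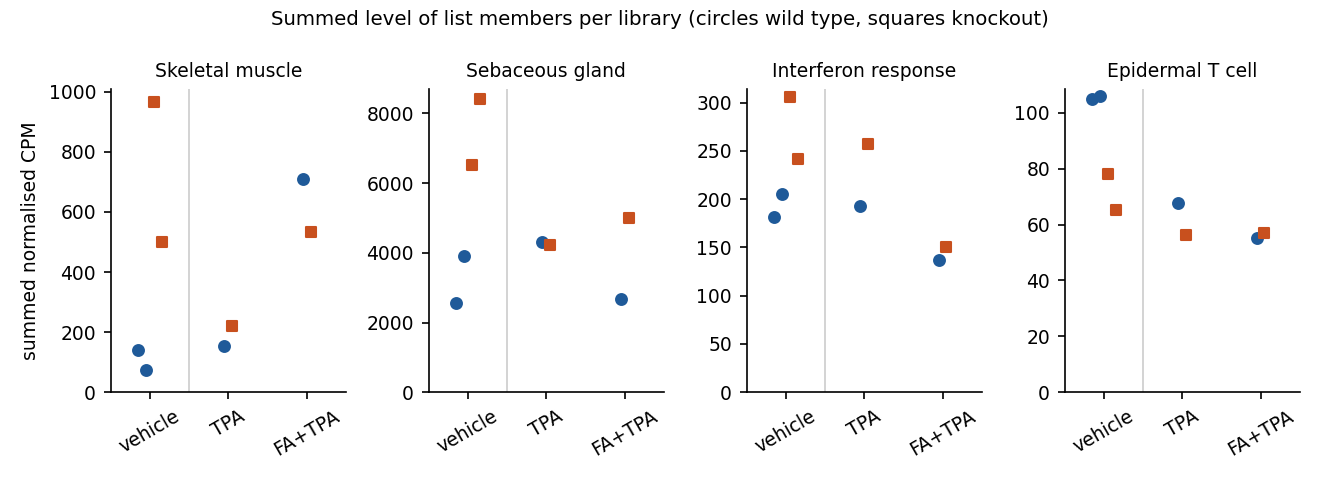
Summed normalised CPM of 4 marker lists in each of the 8 libraries, with circles for wild type and squares for knockout; the grey line separates the vehicle libraries from the treated ones, which were normalised separately. Under vehicle both knockout libraries lie above wild type for muscle, sebaceous and interferon genes and below it for T cell genes. The order is the opposite for sebaceous genes with TPA, and for muscle and T cell genes with FA+TPA. Those sebaceous (4320 in wild type, 4223 in knockout) and T cell (55.3 and 56.8) levels are close.

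A different group of calls came from genes nearly silent in 1 genotype. Of the 143 genes lower in knockout, 14 had no count in either knockout library, and 32 had 3 counts or fewer in each. Of the 311 higher genes, 1 had no count in wild type and 15 had 3 or fewer. Such genes passed the low-count filter only through the genotype in which they had counts. These numbers therefore describe the calls and do not support them, and no share of all tested genes at such counts was drawn up. The labels do not say whether the genotypes were littermates. For such genes the Ddit4 knockout and any other difference between the mice cannot be told apart. Trim12a (chromosome 7, 104299894 to 104315466), of the antiviral TRIM5 family, was at 7.51 and 8.71 CPM in wild type and without a count in knockout, at least 53.7-fold lower against a floor of 3 counts per library. Its neighbour Trim5 was at least 7.42-fold lower and the lectin gene Itln1 (2.44 and 2.33 CPM in wild type) at least 15.8-fold lower. Trim5 and Itln1 were singled out after their values were seen. Gm4349, a noncoding transcript, was the reverse, at 1.93 and 1.88 CPM in knockout and without a count in wild type (at least 11.0-fold higher), and it was also without a count in both treated wild-type libraries. Among the noncoding and unnamed calls, Gm45638 was at least 13.9-fold and Gm8810 at least 10.1-fold lower. Gm7298 differed between the knockout replicates, at 14.98 and 47.6 CPM against 2.38 and 2.05 CPM in wild type.

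Pseudogenes, copies of genes that mostly do not make protein, were called in a larger share than coding genes, and mostly as lower. Of 902 tested, 14 were higher and 33 lower (5.21%), beside 2.62% of 13892 protein-coding genes, a difference in shares that was not tested. All 33 lower ones were lower by more than 2-fold and 18 by more than 16-fold, and all 33 were also lower in knockout in both treated pairs. Of the 371 pseudogenes matched to a protein-coding parent at 90% identity, 33 were called (8.89%), while of their 27 tested parents 1 was called. Among the 118 copies of ribosomal protein genes 4 were higher and 6 lower (8.47%). Genes of any kind with a near-identical copy elsewhere (at least 95% identity) were called in 3.75% of 1414 cases, beside 2.35% of 17075 without one. Reads from such families can be assigned to either copy or dropped, so the level of one member does not stand for the family.

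Of 81 tested ribosomal protein genes, the protein parts of the ribosome, 5 were called lower (0.773% of all tested genes were) and none higher (1.68%). The 5 were Rps3a1, Rpl29, Rpl34, Rpl3 and Rps2. Each has near-identical copies. Rps3a1 (chromosome 3, 86137940 to 86142702) was at 17.5 and 18.9 CPM in wild type and at 2.08 and 2.13 CPM in knockout (-3.11 ± 0.20, edgeR adjusted p = 5.49e-05). Its copy Rps3a3 (chromosome 13, 108670603 to 108671397) went the other way, at 55.2 and 59.0 CPM in wild type and at 119.9 and 113.7 CPM in knockout (1.03 ± 0.12, edgeR adjusted p = 0.0021). With all copies summed, the family was at 74.2 and 79.5 CPM in wild type and at 123.1 and 117.5 CPM in knockout, which turned the direction to higher (0.65 ± 0.12, edgeR adjusted p = 0.0209). The 200 bases below, from the coding part of the GENCODE M21 transcripts, show how alike the pair is, with capitals where they differ. The 795 coding bases compared hold 9 differences, of which 3 fall in this stretch.
Rps3a1: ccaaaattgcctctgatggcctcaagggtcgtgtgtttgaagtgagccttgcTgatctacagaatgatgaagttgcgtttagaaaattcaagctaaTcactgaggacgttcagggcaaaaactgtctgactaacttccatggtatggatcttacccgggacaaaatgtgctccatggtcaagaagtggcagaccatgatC
Rps3a3: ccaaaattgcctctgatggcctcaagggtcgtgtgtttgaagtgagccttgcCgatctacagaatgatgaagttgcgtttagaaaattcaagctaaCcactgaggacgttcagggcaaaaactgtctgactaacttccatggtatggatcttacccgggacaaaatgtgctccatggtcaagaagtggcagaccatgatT

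Rplp0, which encodes the stalk protein P0, showed the same kind of split with the opposite parent. Rplp0 (chromosome 5, 115559467 to 115563727) was at 366.5 and 429.1 CPM in wild type and at 591.0 and 527.5 CPM in knockout (0.49 ± 0.14), which missed the threshold (edgeR adjusted p = 0.114). Its processed copy Gm8730 (chromosome 8, 102864845 to 102865798) was at 23.6 and 30.4 CPM in wild type and at 0.203 and 0.198 CPM in knockout, 4 counts in each library (-7.03 ± 0.30, edgeR adjusted p = 4.42e-06). It had the smallest p of all tested genes. The summed family differed by 0.35 ± 0.14 (edgeR adjusted p = 0.339). The 954 coding bases compared hold 12 differences, 5 of them in the 200 bases shown.
Rplp0: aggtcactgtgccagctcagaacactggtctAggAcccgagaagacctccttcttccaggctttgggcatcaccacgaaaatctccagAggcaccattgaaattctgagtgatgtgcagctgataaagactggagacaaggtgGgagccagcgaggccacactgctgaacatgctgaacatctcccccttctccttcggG
Gm8730: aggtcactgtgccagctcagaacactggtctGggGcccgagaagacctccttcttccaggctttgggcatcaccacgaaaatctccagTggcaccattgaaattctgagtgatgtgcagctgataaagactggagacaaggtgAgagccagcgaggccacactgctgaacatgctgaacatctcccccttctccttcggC

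The other families varied in the same respect. Rps13-ps2 was at 3.48 and 5.55 CPM in wild type and without a count in knockout, at least 29.9-fold lower, and it is identical to Rps13 over the matched part. A second copy, Rps13-ps1, was higher (1.01 ± 0.17, edgeR adjusted p = 0.0115), Rps13 itself was not called (-0.27 ± 0.22), and the sum was not either (0.54 ± 0.14, edgeR adjusted p = 0.0975). Rps15a-ps8 was at least 28.0-fold lower while the Rps15a family sum was not called (0.29 ± 0.16). For the other 4 lower ribosomal protein genes the sum was still lower: Rpl34 by 1.94 on the log2 scale (-2.19 alone), Rpl3 by 0.98 (-1.49 alone), Rpl29 by 0.94 (-2.52 alone) and Rps2 by 0.74 (-0.93 alone). Fabp5, a fatty acid binding protein of keratinocytes and sebocytes, became a call when its copies, among them Gm6166 (1.97 ± 0.18), were added (0.89 ± 0.17, edgeR adjusted p = 0.0314). Over the 34 families with a called copy or a called ribosomal parent, the sum was higher in 5, lower in 6 and not called in 23. Tpm3-rs7, a copy of the tropomyosin gene Tpm3 (99.2% identity), was lower at 0.762 and 0.445 CPM against 8.06 and 9.26 CPM (-3.83 ± 0.31, edgeR adjusted p = 0.000336). Summing all copies with their parents left 388 calls.

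**Figure D3:**
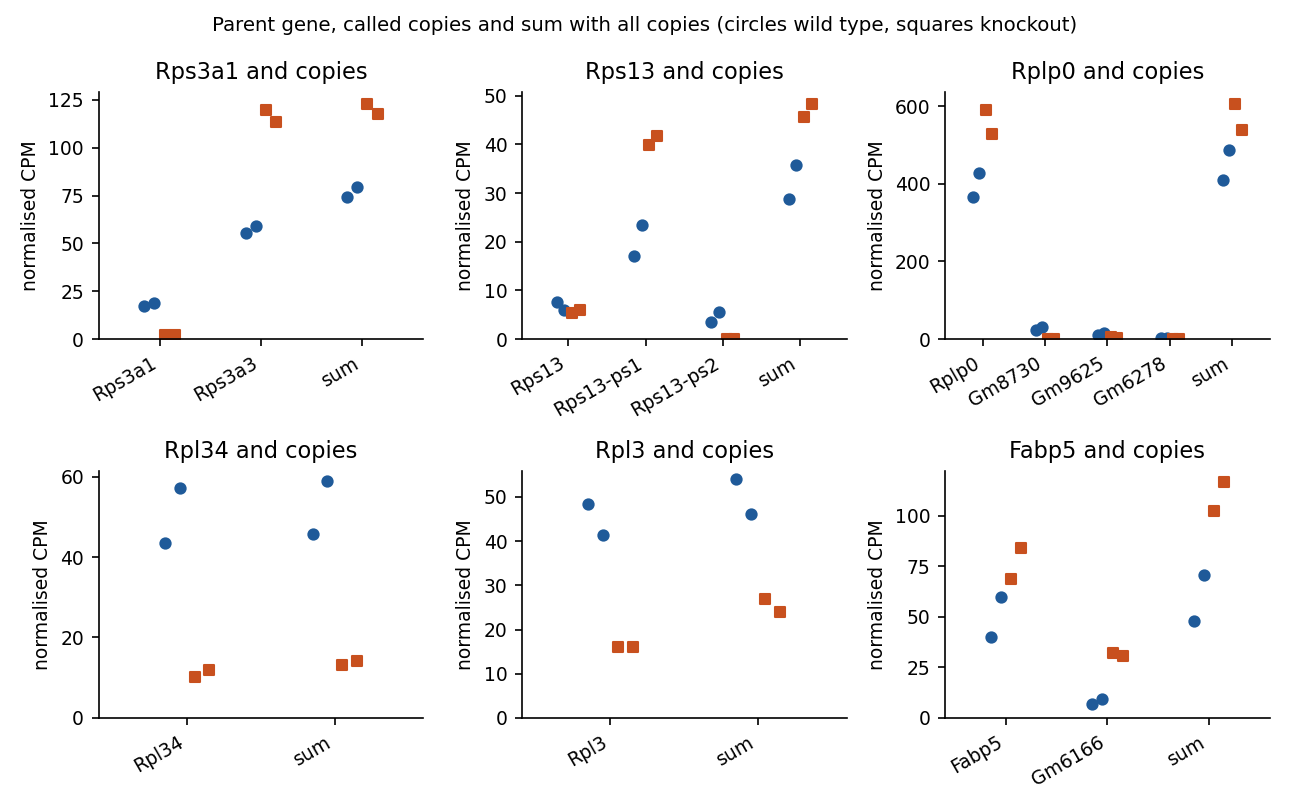
Normalised CPM in the 4 vehicle libraries for 6 parent genes, their called copies and the sum over parent and all copies, with circles for wild type and squares for knockout. Rps3a1 and Rps3a3 change in opposite directions and their sum is higher in knockout, while Rpl34 and Rpl3 stay lower in the sum.

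The treated libraries share no sample with the vehicle comparison, and the direction of each call was looked up in them. Of the 454 called genes 330 (72.7%) had the same sign in both treated pairs, beside 37.4% of all tested genes. The share was higher for genes lower in knockout, 126 of 143, than for those higher, 204 of 311; the difference between the shares was not tested. With a protein-coding annotation the counts were 78 of 94 lower and 172 of 270 higher genes. Krtap3-2, Dsc2, Golga7b, Nop58, Rpl34 and Ddit4 each kept their sign in both pairs. Each treated value rests on 1 library a genotype and has no error. The treated files differ by genotype in their line ends as the vehicle files do. The Ddit4 knockout, any other difference between the mice and a difference in file preparation therefore cannot be told apart by this agreement.

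**Figure D4:**
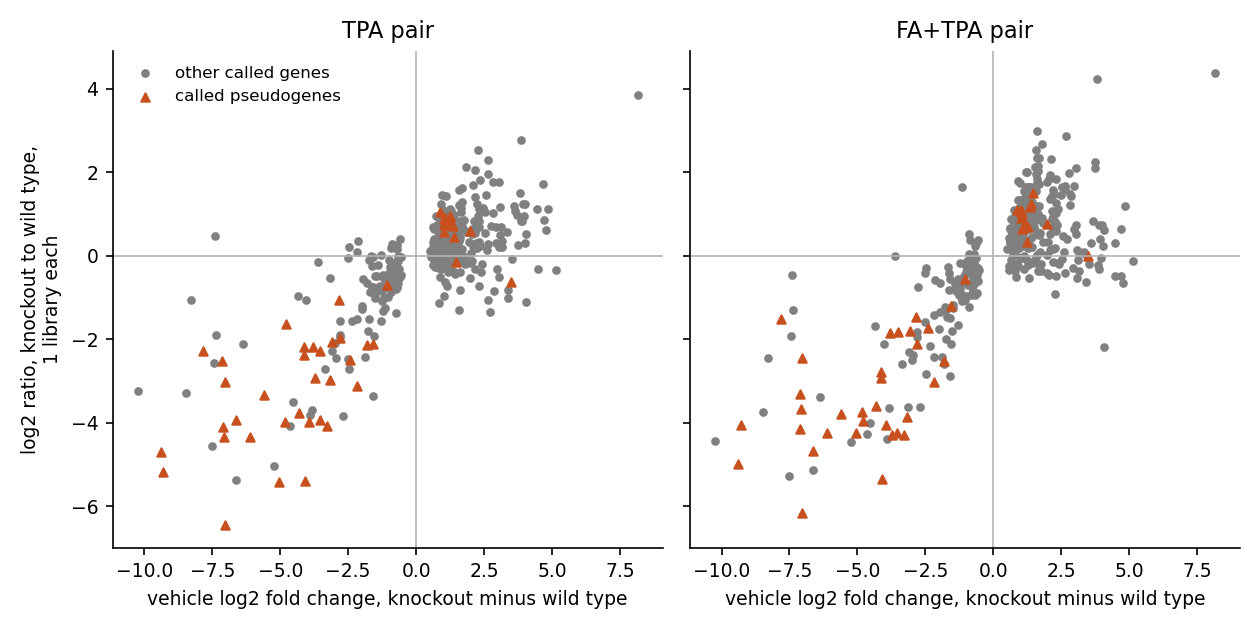
Log2 ratio of knockout to wild type in the TPA pair (left) and the FA+TPA pair (right), 1 library of each genotype, against the vehicle log2 fold change, for the 454 called genes; triangles are the called pseudogenes. All 33 pseudogenes lower under vehicle lie below 0 in both panels.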

How the data were processed

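Total RNA of scraped back-skin epidermis was sequenced from 8 samples. The submitters' processing notes name Trim Galore, STAR, HTSeq and the build mm10. Versions, annotation and strand: not given in the sources used here. The values the authors deposited are raw read counts per Ensembl gene, 1 file a library, and they were not normalised. Symbols and coordinates came from GENCODE M21, which matched 54165 of 54232 identifiers.

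The 4 vehicle libraries were normalised together by TMM (factors 0.972 to 1.017). Genes passing edgeR's filterByExpr with a minimum count of 10 were tested by genotype with edgeR 4.0.16 quasi-likelihood F tests in R 4.3.3, with 2 residual degrees of freedom, with Benjamini-Hochberg adjustment over all of them (threshold 0.05). SE was derived from the log2 fold change and F. The script was tested on simulated counts. Treated pairs gave log2 CPM ratios with a prior count of 2, without a test. Near-identical copies were found with blastn 2.17.0, using 1 transcript a gene: at least 95% identity over 80% of the shorter transcript and 200 bases, or 90% identity over 80% of a pseudogene for its parent. Counts of a family were then summed and refitted. Floors cover counting error only.

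The comparison, the 38 gene lists and the genes were chosen with earlier results of these data known. By rule, Ddit4 was named first, then the 10 largest rises and 10 largest falls among called, named protein-coding genes whose mean log2 CPM was 2 or more. The 4 largest rises and falls among called pseudogenes, noncoding and unnamed genes followed, then up to 8 called genes within 10 Mb of Ddit4. From each list the rule took up to 2 called members with the smallest p, or else the member with the smallest p, and always Ddit4l, the sestrins, Tsc1, Tsc2 and Txnip. Some genes that were taken are left out of the text. Other genes named with a value were chosen after their values were seen, as members of a list or family. Alternatives were a minimum count of 50, no low-count filter, scaling by RLE or by library size, limma-voom 3.58.1, DESeq2 1.42.0, a robust prior, a replicate block, all 8 libraries, each library left out, and the removal of noncoding genes, muscle genes, the abundant noncoding transcript Gm26917 (8.34% to 13.83% of vehicle counts) or genes within 10 Mb of Ddit4. Summed copies and a crossed replicate block were added after seeing the data.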

Additional observations from a re-analysis of the deposited data

Results flagged for a closer look

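Each of 4 genes called higher in knockout under vehicle was lower in knockout in both treated pairs. The difference between conditions was not tested, because each treated pair is 1 library a genotype. Myh1, with a vehicle log2 fold change of 4.06, was at 6.58 (wild type) and 2.99 (knockout) CPM with TPA, and at 37.5 and 8.13 CPM with FA+TPA. Dusp1 (0.99 under vehicle) was at 109.8 and 94.3 CPM with TPA and at 134.6 and 129.6 CPM with FA+TPA, a small difference in both. Its vehicle call missed the threshold under 5 alternatives, among them DESeq2 (adjusted p = 0.333) and a robust prior in edgeR (adjusted p = 0.116). Flg (0.83 under vehicle) was at 1037 (wild type) and 472.2 (knockout) CPM with TPA, and at 2144 and 1515 CPM with FA+TPA. Mki67 (0.56 under vehicle) was at 391.4 and 380.7 CPM with TPA and at 376.8 and 299.3 CPM with FA+TPA.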

How the results depend on the processing

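The Ddit4 call kept its direction and side of the threshold, and the sebaceous count stayed within 1.5 times its value, under the 19 alternatives run for them. The total, higher and lower counts of called genes were 956, 639 and 317 with no low-count filter. With a minimum count of 50 they were 226, 164 and 62. With protein-coding genes alone they were 255, 192 and 63, while the main fit called 270 higher and 94 lower among such genes. With a replicate block the counts were 832, 583 and 249, and with the numbers crossed 950, 643 and 307. Differences between replicates 1 and 2 correlated across genes between genotypes at -0.077, and at -0.154 for genes whose mean log2 CPM was 2 or more, so the numbers were not shown to pair the samples. Leaving out 1 library gave 504 to 1777, 364 to 1024 and 140 to 753. Interferon members called were 9 with no filter, 2 with a minimum count of 50, 9 with the replicate block, 11 with the crossed one and 6 to 13 with 1 library left out. Muscle members were 9 with a minimum count of 50 and 7 with a robust prior, and removing the muscle list gives no value for it. Reversed signs were Rps3a1 with copies summed (0.65), and, with 1 library left out, Hba-a1 (range -1.32 to 0.33), Sesn1 (-0.18 to 0.24), Sesn2 (-0.25 to 0.10) and Txnip (-0.87 to 0.50, and 0.21). Apart from the Rps3a1 sum, the cause was not tested.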

Other observations

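Further genes of fatty acid handling were among the calls higher in knockout under vehicle. They were picked after their values were seen, so no count or share is drawn from them. Acot1, a thioesterase that releases fatty acids from coenzyme A, was at 11.1 and 13.6 CPM in wild type and at 37.8 and 43.8 CPM in knockout (1.72 ± 0.16, edgeR adjusted p = 0.00059). Crat, which moves acetyl groups onto carnitine, was at 44.5 and 53.3 CPM against 101.2 and 125.3 CPM (1.21 ± 0.15, edgeR adjusted p = 0.00297). Acoxl (1.80 ± 0.22), Pex11a, a peroxisome division gene (1.08 ± 0.18), and the fatty acid carrier Cd36 (1.20 ± 0.27) were called as well. With TPA, Acot1 was at 17.4 (wild type) and 15.8 (knockout) CPM, so its difference was not seen there. The sebaceous list was higher in the same vehicle libraries, and its part in these differences was not tested.

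Paqr7, a membrane progestin receptor, was at 71.4 and 96.1 CPM in wild type and at 272.6 and 263.7 CPM in knockout (1.68 ± 0.15, edgeR adjusted p = 0.000547). It was also higher in knockout with TPA (36.5 against 22.1 CPM) and with FA+TPA (62.2 against 44.4 CPM). H60c, a ligand of the NKG2D receptor carried by epidermal T cells, was at 26.9 and 29.3 CPM in wild type and at 8.18 and 10.5 CPM in knockout (-1.59 ± 0.17, edgeR adjusted p = 0.00132). With TPA it was at 21.1 (wild type) and 1.952 (knockout) CPM, and with FA+TPA at 39.0 and 5.23 CPM. The guanylate-binding protein gene Gbp2b, an interferon-gamma target outside the list, was at 4.15 and 5.27 CPM against 20.6 and 19.5 CPM (2.09 ± 0.19, edgeR adjusted p = 0.00053), and was higher in knockout in both treated pairs. Gbp2 (0.52 ± 0.20) and Gbp3 (0.28 ± 0.43), which are on the list, were not called.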
